A study of Mus musculus with 10 samples.

Results

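The data described here are the TNF-alpha time course of Sirt6 knockout (KO) mouse samples, the 5 KO arrays of a series of 10. Untreated KO samples were measured on 2 arrays, here called KO 0 h a and KO 0 h b, and KO samples after 1.5, 6 and 24 h of TNF-alpha on 1 array each. The 5 arrays were chosen by their labels, and the treated arrays were set against the untreated pair together and one by one. Sirt6 is a chromatin-bound deacetylase, and all 5 samples are labelled as its knockout, so untreated KO is the baseline throughout. Wild-type (WT) arrays of the same design, 2 untreated and 1 at each later time, serve only as a comparison. On each array the sample's total RNA was labelled with Cy5 and competed with a Cy3-labelled universal mouse reference. The cell type, the knockout allele and the TNF-alpha dose are not given in the sources used here. It is not stated whether the 2 untreated arrays came from separate cultures, so every error and p-value below covers the differences among these arrays, and these may be technical alone.

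TNF-alpha is a cytokine that binds its receptor at the cell surface and, through adaptor proteins and the IkB kinase complex, marks the inhibitor IkB-alpha for destruction. The NF-kB subunits held by that inhibitor then enter the nucleus and switch on chemokines, adhesion molecules and survival factors. Among the induced genes are the inhibitors of the pathway, such as Nfkbia, which encodes IkB-alpha itself, and Tnfaip3, so the response limits itself. Early, lasting and late waves of target genes are a known feature of this response, and Sirt6 is known for silencing NF-kB target genes at their chromatin.

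A value is the deposited log ratio of a gene, the mean of its probes, read as log2 of sample over reference and centred on the array's median over genes. A value of 0 is therefore the level of the median gene relative to the reference, and levels of different genes cannot be set against each other. Complete values on the 10 arrays were present for 36113 of the 38784 spots, which gave 14365 genes. The untreated KO pair was the least alike of the 2 pairs. Over genes the SD of the difference between its arrays was 0.662, against 0.304 in the untreated WT pair, and 9.74% of genes lay at least 1 log2 unit apart against 0.633%. The SD over spots was also widest on these arrays, 0.833 on KO 0 h a and 0.983 on KO 0 h b, against 0.786, 0.629 and 0.755 at 1.5, 6 and 24 h. Sirt6 itself lay at -1.05 and -0.82 on the untreated KO arrays. It lay at -0.76 after 1.5 h and -1.16 after 6 h, also below the WT arrays, which ran from -0.16 to 0.07. On the array labelled KO at 24 h Sirt6 lay at -0.05, inside the WT range, so its values go against that label and results are also given without it.

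The first question was which genes differed between treated and untreated KO arrays. With limma, a linear model with moderated variances, 0 of 14365 genes (0.0%) passed a Benjamini-Hochberg adjusted p under 0.05 with the 3 treated arrays together. At an unadjusted p under 0.05 there were 741 higher and 356 lower. In this fit any difference between the treated times counts as error. The gene nearest to the threshold was Ccl2, a chemokine that attracts monocytes, 2.91 higher (SE 0.24, limma adjusted p = 0.0501, 3 treated against 2 untreated arrays). Without the 24 h array 0 genes (0.0%) passed as well, with 532 higher and 264 lower at an unadjusted p under 0.05. One time at a time the limma fit rests on the untreated pair alone for its spread, and 0 genes (0.0%) passed at 1.5 h, 0 (0.0%) at 6 h and 0 (0.0%) at 24 h. At an unadjusted p under 0.05 these had 422, 708 and 927 genes. With no difference at all a share of about 0.05 of the 14365 genes would reach this p. The counts are therefore no measure of a growing response. Tried on simulated data, the fits of 1 time recovered 0% of genes given a change of 2 log2 units, so their counts of 0 say little. Given 4 units they recovered 97.5% to 99.5%. The fit of the 3 treated arrays recovered 72% at 2 units and 100% at 4, and the fit without 24 h 40% and 98%.

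As no gene passed, the time course is described by the distance of each treated array from both untreated arrays, with no test, because each time had 1 array. A gene is called past the line at a time when it lay at least 1 log2 unit above, or below, both untreated KO arrays. At 1.5 h 145 genes (1.01%) were past the line upward and 107 (0.745%) downward. At 6 h the numbers were 294 (2.05%) and 127 (0.884%), and at 24 h 289 (2.01%) and 214 (1.49%). Genes past the line at 1.5 h and not at 24 h are called early, those past it at all 3 times sustained, and those past it at 24 h and not at 1.5 h late. Upward there were 77 early (0.536%), 53 sustained (0.369%) and 221 late genes (1.54%). Downward there were 96 early (0.668%), 5 sustained (0.0348%) and 203 late genes (1.41%). A further 163 genes (1.13%) were higher at 6 h alone and 90 (0.627%) lower. The split depended on scaling, since the late class was 142 higher and 327 lower after quantile normalization and the sustained higher class held 24 genes there and 17 with equal spread.

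**Figure D1:**
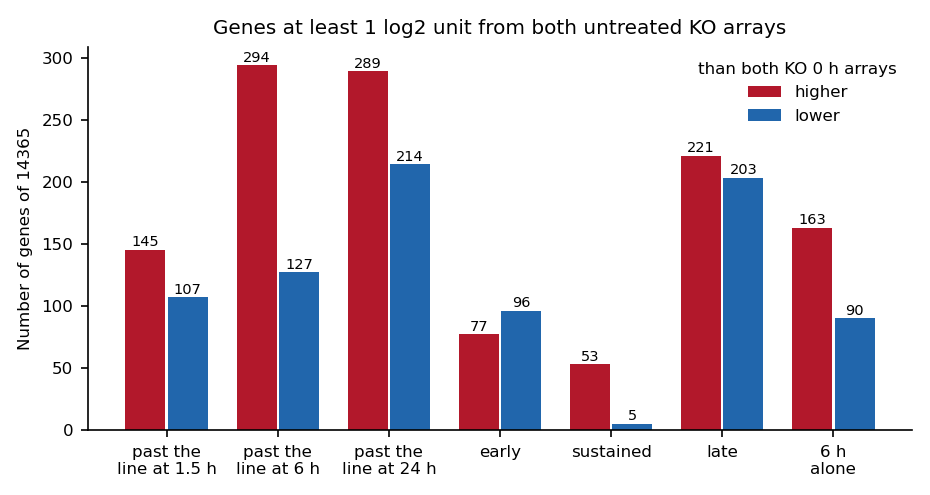
Number of genes (vertical axis) at least 1 log2 unit above (red) or below (blue) both untreated KO arrays, at each time and by class over time. The sustained class has 53 higher and 5 lower genes, whereas the late class has 221 and 203.

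Chemokines, NF-kB inhibitors and other inflammatory genes were past the line upward more often than all genes. The 8 lists of TNF receptor components, NF-kB subunits, NF-kB inhibitors, CC and CXC chemokines, interleukins, adhesion molecules and acute-phase effectors held 128 measured genes. Of these 13 (10.2%) were past the line upward at 1.5 h, 16 (12.5%) at 6 h and 13 (10.2%) at 24 h, against the shares of all genes given above. Downward there was 1 each at 1.5 and 6 h, the chemokine Ccl27a and the adhesion molecule Mcam, and none at 24 h. In the sustained class 9 of the 128 (7.03%) were found, in the early class 3 (2.34%) and in the late class 3 (2.34%). The 9 are the CC chemokines Ccl2, Ccl7, Ccl20 and Ccl5, the CXC chemokines Cxcl1 and Cxcl5, Nfkbia, the adhesion molecule Icam1 and the complement protease C1ra. They are the only sustained genes in any of the 20 pathway lists.

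Ccl2 lay at -0.28 and -0.39 on the untreated KO arrays and at 2.75, 2.32 and 2.66 after 1.5, 6 and 24 h. All 3 treated arrays lay far above both untreated ones and differed little among themselves. Ccl7, a related monocyte chemokine encoded beside Ccl2, lay at 1.21 and 1.00 untreated and at 2.85, 2.48 and 2.99 at the 3 times. Its treated mean was 1.67 higher (SE 0.26, limma adjusted p = 0.180), and the groups did not overlap. Ccl20, the ligand of the receptor CCR6, lay at 0.13 and -0.90 untreated and at 3.43, 2.58 and 2.42 when treated. It was highest at 1.5 h, with a treated mean 3.20 higher (SE 0.41, limma adjusted p = 0.156) despite the wide gap between the untreated arrays. Ccl5, which attracts T cells and monocytes, lay at -3.93 on both untreated arrays and at -2.24, -0.23 and -1.73 at 1.5, 6 and 24 h. Its peak was at 6 h rather than 1.5 h, and the treated mean was 2.53 higher (SE 0.53, limma adjusted p = 0.350).

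Among the CXC chemokines, Cxcl1, which attracts neutrophils, lay at -4.82 and -4.68 untreated and at -1.24, -2.69 and -2.06 after 1.5, 6 and 24 h. It was highest at 1.5 h, with a treated mean 2.76 higher (SE 0.41, limma adjusted p = 0.180). Cxcl5, a neutrophil chemokine of the same family, lay at -2.79 and -3.35 untreated and at -1.05, -0.89 and 0.21 when treated. Its highest value came at 24 h, and the treated mean was 2.50 higher (SE 0.41, limma adjusted p = 0.197).

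Nfkbia lay at -1.52 and -1.83 untreated and at 0.06, -0.18 and -0.03 at 1.5, 6 and 24 h. The inhibitor's level was flat from 1.5 h on, with a treated mean 1.63 higher (SE 0.24, limma adjusted p = 0.180). Icam1, by which leukocytes adhere to the cell surface, lay at -1.33 and -1.94 untreated and at 0.01, 0.17 and -0.03 when treated. Its course had the same shape, with a treated mean 1.69 higher (SE 0.27, limma adjusted p = 0.180). C1ra, a serine protease of the classical complement pathway, lay at -3.41 and -4.00 untreated and at -2.39, -2.02 and -1.97 when treated. It was the smallest of the 9, 1.58 higher (SE 0.28, limma adjusted p = 0.271), and at 1.5 h it lay 1.02 above the nearer untreated array, just inside the line. When the arrays were scaled to equal spread, 6 of the 9 stayed in a sustained class of 17 genes, and Ccl5, Cxcl1 and C1ra left it. The same 3 left it after quantile normalization, where the class held 24 genes, 23 of them among the 53.

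**Figure D2:**
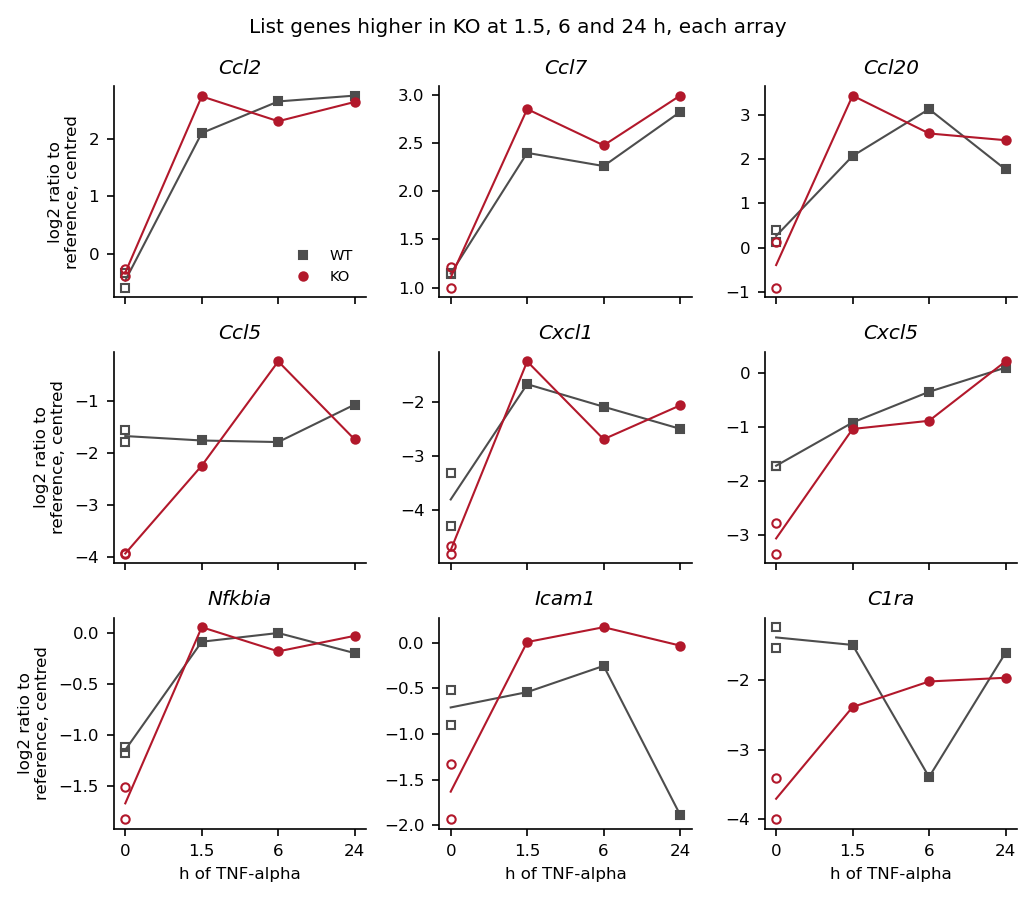
Centred log2 ratio (vertical axes) of the 9 sustained list genes against hours of TNF-alpha (horizontal axis, not to scale), with KO in red and WT in grey; open symbols are the 2 untreated arrays and filled symbols single treated arrays. Both untreated KO arrays lie below both untreated WT arrays in 7 of the 9 genes, all but Ccl2 and Ccl7.

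The chemokines and the inhibitor among these genes are classical NF-kB targets, and the RefSeq promoter table, build GRCm38.p6, held 3 of the 7, namely Ccl20, Cxcl1 and Nfkbia. The 120 bases directly upstream of each start are shown because these genes move together from 1.5 h on. Capitals mark matches, on either strand, to GGG and TTTCC with any 2 bases between them, a common form of the NF-kB binding motif. The stretches are chr1:83116646-83116765 on the plus strand for Ccl20, chr5:90891125-90891244 on the plus strand for Cxcl1 and chr12:55492648-55492767 on the minus strand for Nfkbia.
Ccl20: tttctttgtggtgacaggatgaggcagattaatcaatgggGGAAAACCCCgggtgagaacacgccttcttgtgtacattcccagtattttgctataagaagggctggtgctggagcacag
Cxcl1: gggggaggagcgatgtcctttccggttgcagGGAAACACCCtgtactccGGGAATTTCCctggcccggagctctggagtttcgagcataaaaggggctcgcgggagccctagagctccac
Nfkbia: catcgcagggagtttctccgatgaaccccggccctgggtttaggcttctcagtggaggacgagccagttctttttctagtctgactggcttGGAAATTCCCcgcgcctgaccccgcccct
Each of the 3 held a match, which began 80 bases upstream of the start in Ccl20, 89 and 71 bases in Cxcl1, and 29 bases in Nfkbia. A match in the same 120 bases was present in 0.737% of the 32851 windows listed. A match is a description of the letters and not of binding, and the 4 remaining chemokines have no entry in the table.

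The other 44 sustained genes belong to no pathway list. The leading ones by distance from the untreated arrays are Cd247, the zeta chain of the T-cell receptor complex, Prtn3, a neutrophil protease, Slc15a2, a peptide transporter, Olfr518, an olfactory receptor, Tbx1, a developmental transcription factor, and H2-DMb1, which helps load MHC class II. Cd247 lay at -3.08 and -3.18 on the untreated KO arrays and at -0.53, 1.04 and 0.58 when treated. The 5 WT arrays of Cd247 lay between -0.25 and 0.63, so only untreated KO was low. Prtn3 lay at -2.77 and -2.21 untreated and at 0.33, -0.13 and 0.21 when treated, 2.62 higher (SE 0.28, limma adjusted p = 0.0831). In Tbx1 the untreated values were -1.98 and -2.40 and the treated ones 0.07, 0.21 and -0.06, 2.26 higher (SE 0.25, limma adjusted p = 0.0831).

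Of these 44 genes 43 (97.7%) had both untreated KO arrays below both untreated WT arrays, against 28.8% of all genes. In 37 (84.1%) they lay at least 1 log2 unit below, against 1.02% of all genes. The class reads the untreated KO values, so low ones are favoured by the choice and these shares are a description. The median treated-minus-untreated difference of the 44 genes was 1.89 in KO and -0.46 in WT. In 1 of them (2.27%) all treated WT arrays lay above both untreated WT arrays, and in 13 (29.6%) below. Over all genes these shares were 15.3% above and 16.4% below. For the 9 list genes the medians were 2.50 in KO and 1.33 in WT. Of the 9, 6 (66.7%) had all treated WT arrays above both untreated ones and 0 below. The class requires a rise of at least 1 in KO and nothing of WT. A larger median in KO is therefore favoured by the choice and is no measure of a stronger KO response. A low untreated KO level was found among them too. In 7 of the 9 (77.8%) both untreated KO arrays lay below both untreated WT arrays, and in 3 (33.3%) at least 1 unit below. Position on the array moved with these values. The running median over neighbouring spots in the deposited order was 0.33 higher on treated than on untreated KO arrays at the spots of the 44 genes and 0.22 higher at those of the 9, against -0.02 over all genes. Its part in the result was not tested. After that running median was subtracted, 38 genes were sustained, among them 8 of the 9.

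**Figure D3:**
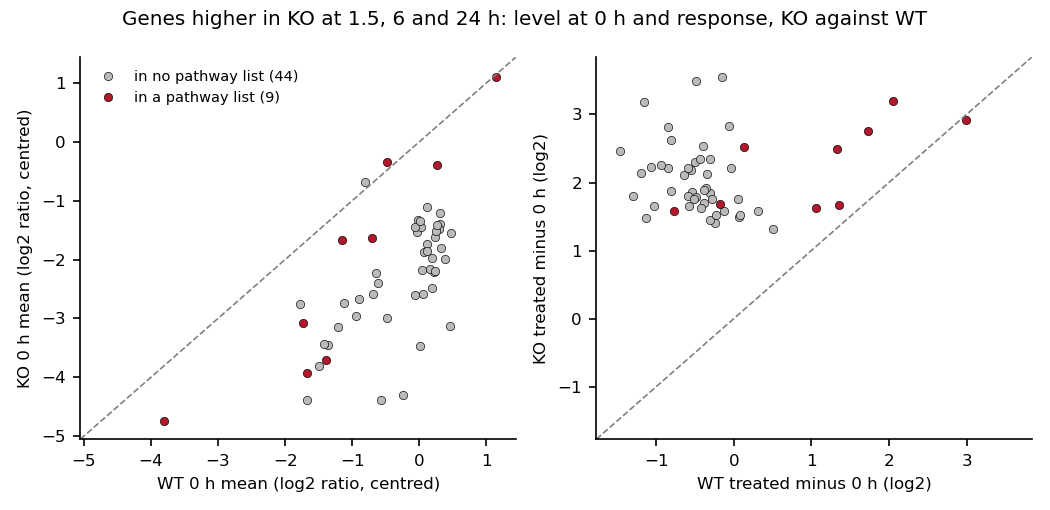
The 53 higher sustained genes with KO on the vertical and WT on the horizontal axis, as the mean centred log2 ratio at 0 h (left) and as the treated-minus-untreated log2 difference (right); red points are the 9 genes of pathway lists and the dashed line marks equal values. Most grey points lie far below the line at 0 h, and on the right the red points reach high WT responses while the grey ones lie between -1.47 and 0.51 in WT.

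The leading early higher genes by distance were Klk1, Slc38a7 and Zc2hc1c, each with 1 probe. They lay 6.04, 2.82 and 2.47 above the nearer untreated array at 1.5 h and belong to no pathway list. Of the 77 early higher genes 3 are list genes. Tnfaip3, the ubiquitin-editing enzyme A20 that shuts off NF-kB signalling, lay at 0.41 and 0.08 untreated and at 1.54, 0.67 and 1.04 after 1.5, 6 and 24 h. Birc3, an inhibitor of apoptosis, lay at -0.86 and -0.70 untreated and at 0.43, -0.10 and -0.59 when treated. Its 24 h value was only 0.12 above the nearer untreated array. Csf1, the macrophage growth factor, lay at 1.44 and 1.77 untreated and at 3.12, 2.17 and 2.55 when treated. For all 3 genes 1.5 h was the highest array and every treated array lay above both untreated ones, so only the size of the difference makes them early. Bcl3, an IkB-like co-regulator of NF-kB, lay at -0.89 and -0.81 untreated and at 0.96, 0.01 and 0.21 when treated. It was past the line at 1.5 and 24 h and 0.82 above the nearer untreated array at 6 h, just short of it. The treated means were 0.84 (SE 0.31), 0.70 (SE 0.33), 1.01 (SE 0.32) and 1.24 (SE 0.32) higher for Tnfaip3, Birc3, Csf1 and Bcl3, with limma adjusted p from 0.391 to 0.690.

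Another set of list genes was past the line upward at 6 h alone. Of the 128 genes of the inflammatory lists 7 (5.47%) were in it, against 1.13% of all genes. These were the chemokines Ccl4, Ccl24, Ccl28 and Pf4 and the acute-phase and innate effectors Lcn2, Lbp and Cd14. Outside the inflammatory lists it held the neutrophil collagenase Mmp8, the nitric oxide synthase Nos2 and the antiviral gene Oasl2. The immediate early genes Fos and Klf6 and the mitotic checkpoint gene Bub1b were also in it. Lcn2, a protein that binds bacterial siderophores, lay at -3.40 and -5.60 untreated and at -3.21, -1.29 and -3.02 after 1.5, 6 and 24 h. Cd14, the co-receptor for bacterial lipopolysaccharide, lay at -2.81 and -3.19 untreated and at -2.21, -0.90 and -1.86 when treated. In both genes 6 h was the highest array, and the 6 h array was also the one with the narrowest spread over spots. Scaling of the arrays to equal spread took the median of the acute-phase list from 0.30 to 0.17. Nos2 rests on 2 probes that disagree, since at 6 h the probes lay at 5.09 and -0.62, and its gene value of 2.24 comes from the former. The treated-minus-untreated difference of Nos2, of Ccl4 and of Mmp8 turned negative under at least 1 alternative, with lowest values of -0.53, -0.28 and -0.09. In Fos, part of the AP-1 factor, the values were -3.68 and -4.25 untreated and -3.08, -2.43 and -2.79 when treated.

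The leading late higher genes by distance from the untreated arrays were the olfactory receptor Olfr1447, Oog4, Slfn3 and Tbr1, a transcription factor of the developing cortex, which lay 4.15, 3.95, 3.76 and 3.12 above the nearer untreated array at 24 h. They belong to no pathway list. List members made up few of the 221 genes. They included 2 of 20 metalloproteinase and inhibitor genes, 2 of 20 interferon-stimulated genes and 3 of 40 cell cycle genes, beside 1.54% of all genes. Mmp3, the matrix protease stromelysin, lay at -4.70 and -3.24 untreated and at -2.72, -1.31 and -0.53 at 1.5, 6 and 24 h. It was higher at each later time, and the treated mean was 2.45 higher (SE 0.66, limma adjusted p = 0.399). Without KO 0 h array a, which held its lowest value, the difference was 1.72, and with equal spread 1.57. Ifit1, an interferon-induced antiviral protein, lay at -1.86 and -2.18 untreated and at -0.86, -0.06 and 1.05 when treated. It too was highest at 24 h, 2.06 higher in the treated mean (SE 0.51, limma adjusted p = 0.383). Tap1, which carries peptides to MHC class I, lay at -1.79 and -2.19 untreated and at -1.05, 0.26 and -0.51 when treated. It peaked at 6 h and passed the line at 24 h as well. The other late list genes were the membrane protease Mmp14, the antiviral gene Oasl1, the redox protein Txn1, the early response gene Ier3, the cytokine Tslp, the adhesion molecule Icam2, the degradation factor Edem1 and the cell division genes Mcm7, Pcna and Plk1. Mcm7 and Pcna, both needed for DNA replication, were at -0.73 and -0.60 on the 24 h array. Their untreated KO values were -1.74 and -2.77 for Mcm7 and -1.63 and -1.76 for Pcna, below the WT range of both genes. The treated-minus-untreated differences of Pcna (0.52) and Tslp (0.62) were as low as -0.00 and -0.13 under at least 1 alternative. All late genes rest on the array labelled KO at 24 h, where Sirt6 lay in the WT range.

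**Figure D4:**
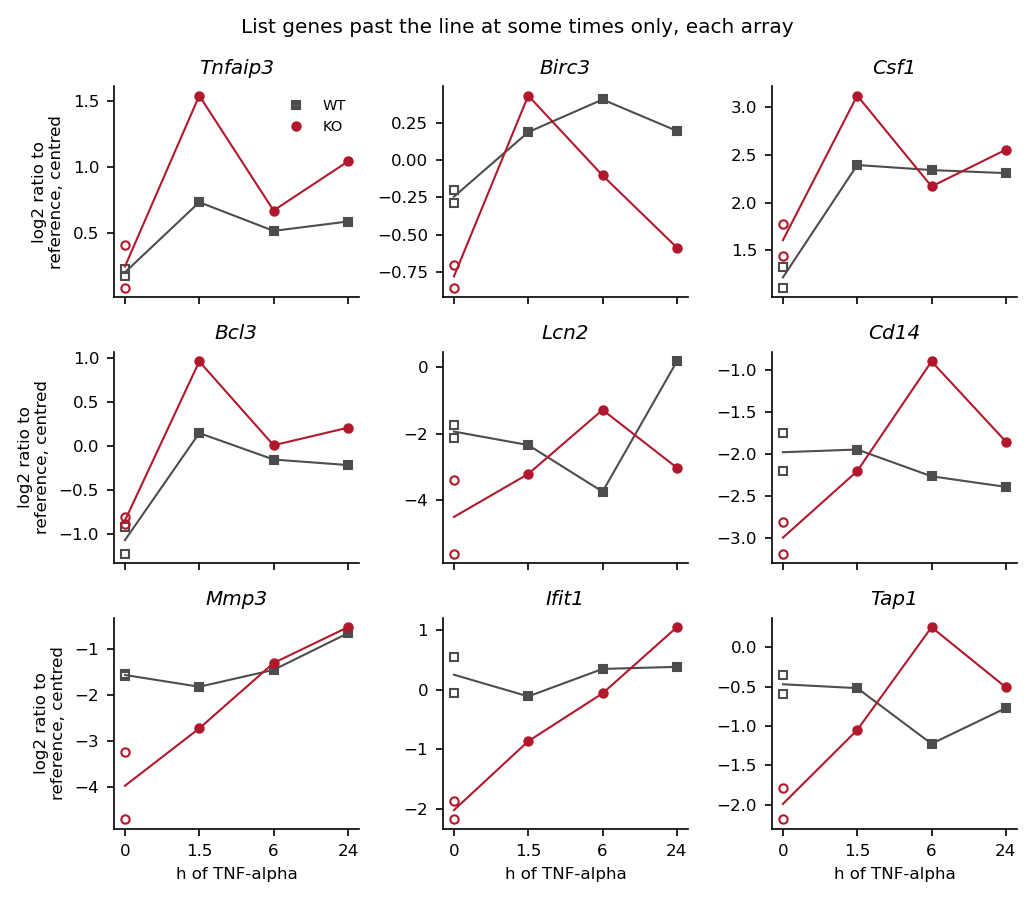
Centred log2 ratio (vertical axes) of 9 list genes past the line at some times only, against hours of TNF-alpha (horizontal axis, not to scale), with KO in red, WT in grey, open symbols for untreated and filled for treated arrays. Tnfaip3, Birc3, Csf1 and Bcl3 are highest at 1.5 h in KO, Lcn2, Cd14 and Tap1 at 6 h, and Mmp3 and Ifit1 at 24 h.

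Genes that were lower on treated arrays included few list members. The leading early lower genes, Olfr954 and Slc9c1, lay 4.075 and 3.41 below the nearer untreated array at 1.5 h. The leading late lower genes, Krtap31-1 and Spink1, lay 2.88 and 2.38 below it at 24 h. The 5 sustained lower genes were C1qtnf3, a secreted C1q-related protein, Id4, an inhibitor of basic helix-loop-helix factors, Prxl2b, Crct1 and Antxrl. Id4 lay at 2.68 and 2.77 untreated and at 1.32, 0.51 and 0.56 when treated, a difference of -1.93 (SE 0.31, limma adjusted p = 0.180). In all 5 genes both untreated KO arrays lay above all 5 WT arrays, against 9.94% of all genes. Of the 5, 4 had a positive difference in WT, against 7032 of all 14365 genes. The class reads the untreated KO values, so high ones are favoured by the choice. Among list genes the pro-apoptotic Bak1 was late lower, at 1.83 and 1.75 untreated and 0.53 at 24 h, and Ccl27a early lower, at 0.67 and 0.59 untreated and -0.43 at 1.5 h. Scaled to equal spread, 1 of the 5 sustained lower genes remained.

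The lists as a whole were compared by the median of their genes' treated-minus-untreated differences, set beside 0.02 over all genes. Upward the largest medians belonged to the CXC chemokines (0.66, 13 genes), the CC chemokines (0.56, 18 genes) and the adhesion molecules (0.51, 9 genes). The median of the CC chemokines was 0.09 after scaling to equal spread and 0.00 after quantile normalization, where the members Ccl2, Ccl7 and Ccl20 were still sustained. CXC chemokines and adhesion molecules kept medians of at least 0.36 and 0.43 under these scalings, but without KO 0 h array b the adhesion median was 0.19. Signalling components upstream of NF-kB showed little difference. The 19 measured TNF receptor and kinase genes had a median of 0.06, with none past the line at any time in either direction. All 4 measured NF-kB subunits, Rela, Relb, Rel and Nfkb2, lay higher in the treated mean, and Nfkb2, named after its values were seen, was the highest at 0.91 (SE 0.24, limma adjusted p = 0.391). Tnf itself lay at -0.24 and -0.38 untreated and at -0.66, 0.07 and -0.16 when treated, with overlapping groups. Sod2, a mitochondrial antioxidant enzyme often induced by TNF-alpha, lay at 0.05 and -0.34 untreated and between -0.28 and -0.17 when treated, also with overlap. Igf1, a growth factor, lay at -1.16 and -1.24 untreated and at -0.65, -0.29 and -0.37 when treated, above both untreated arrays but never past the line.

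Some lists leaned toward 24 h. MHC class I genes had medians of 0.03, 0.28 and 0.54 at 1.5, 6 and 24 h, and cell cycle genes 0.11, 0.24 and 0.39, with 34 of 40 positive at 24 h. Interferon-stimulated genes had medians of 0.28, 0.33 and 0.44. NF-kB inhibitors and acute-phase genes did not follow this order, with 0.34, 0.24 and 0.29 for the former and 0.38, 0.43 and 0.15 for the latter. The direction of the MHC class I and interferon lists is not settled, because their medians over the treated arrays, 0.20 and 0.33, turned to -0.15 and -0.02 with equal spread and to -0.27 and -0.05 after quantile normalization. The cell cycle median of 0.23 shrank to 0.03 and 0.01 in the same fits.

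**Figure D5:**
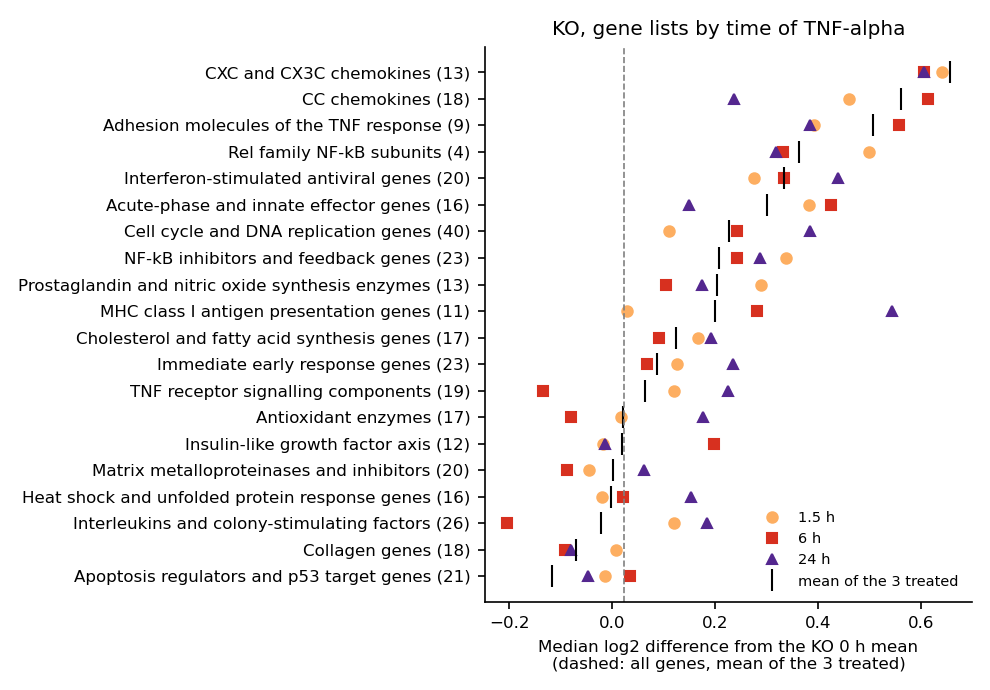
Median over each pathway list of the log2 difference from the untreated KO mean (horizontal axis) at 1.5 h, 6 h and 24 h and for the mean of the 3 treated arrays (black bars), with the number of measured genes in brackets and the median of all genes, 0.02, as the dashed line. The CXC chemokines have the highest black bar, at 0.66, and MHC class I genes spread from 0.03 at 1.5 h to 0.54 at 24 h.

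Without the 24 h array 68 genes (0.473%) were higher at both 1.5 and 6 h and 16 (0.111%) lower. The 53 sustained genes are part of the 68 by definition, and the 9 list genes are the only members of the 8 inflammatory lists among them. Without 24 h the difference of Ccl2 was 2.87 (SE 0.28), that of Ccl20 3.39 (SE 0.45), that of Cxcl1 2.79 (SE 0.48) and that of Nfkbia 1.62 (SE 0.27), with limma adjusted p from 0.458 to 0.580. For Cxcl5 it was 2.10 (SE 0.30), against 2.50 with all 3 treated arrays. None of the 9 list genes changed direction when any KO array was left out, but the definition of their class fixes this in advance. It requires each treated array to lie above both untreated ones. The count of sustained genes moved more with the untreated arrays than with the treated ones. With KO 0 h b as the only baseline it was 574 and with KO 0 h a 149, whereas without the 1.5, 6 or 24 h array it was 116, 68 and 68. By definition this count cannot fall when an array is left out, and the 9 list genes remain in the class each time.

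Ordered only by direction, 1848 genes (12.9%) had all 3 treated arrays above both untreated ones and 1536 (10.7%) below. In the lists this held upward for 9 of 18 CC chemokines, 7 of 13 CXC chemokines, 9 of 23 NF-kB inhibitors, 3 of 4 NF-kB subunits, 4 of 9 adhesion molecules and 13 of 40 cell cycle genes. Downward it held for 1 CC chemokine, 0 CXC chemokines, 2 NF-kB inhibitors, 0 NF-kB subunits, 1 adhesion molecule and 1 cell cycle gene. Upward leaning was also seen in 20 interferon-stimulated genes, with 7 above and 0 below. Of 16 acute-phase genes 6 were above and 1 below, and of 15 myeloid markers 5 and 0. Of 19 TNF receptor components 3 were above and 3 below, and of 26 interleukins and colony-stimulating factors 6 and 4. Smooth muscle markers went the other way, with 0 of 13 above and 6 below.

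The last question was whether the response differed from that of WT. In a limma fit of all 10 arrays the KO response minus the WT response passed for 2 genes (0.0139%), both higher in KO. For Slc15a2 the difference was 2.81 (SE 0.25, limma adjusted p = 0.00759). Its values were -2.05 and -2.27 on untreated KO, 0.14, 0.02 and 0.01 on treated KO, 0.16 and 0.17 on untreated WT and -0.47, -0.24 and -0.58 on treated WT arrays. For Prh1, a salivary proline-rich protein gene, it was 2.23 (SE 0.26, limma adjusted p = 0.0420), from -1.22 and -1.59 on untreated KO, 0.27, 0.19 and 0.30 on treated KO, and values between -0.38 and 0.40 on the WT arrays. In both genes untreated KO was low and the other arrays lay close together. Each gene has 1 probe, and around the probe of Slc15a2 the same running median lay at -0.56 and -1.06 on the untreated KO arrays, and around that of Prh1 at -0.46 and -0.80. With that running median subtracted the differences were 1.73 and 1.38 and 0 genes passed (limma adjusted p = 0.403 for both genes). Prh1 also lost its call without centring (limma adjusted p = 0.0521), among genes with an SD above the median (0.0687) and without the 1.5, 6 or 24 h array (0.116, 0.0771 and 0.168). Slc15a2 kept its call in each of these, with adjusted p of at most 0.0393.

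The NF-kB target genes themselves did not pass in this comparison. The response was 2.91 in KO and 2.99 in WT for Ccl2, 1.67 and 1.35 for Ccl7, 1.63 and 1.06 for Nfkbia and 1.01 and 1.13 for Csf1. For Ccl20 it was 3.20 and 2.05, for Cxcl1 2.76 and 1.73 and for Cxcl5 2.50 and 1.33, about 1 unit larger in KO, with limma adjusted p for the difference from 0.461 to 0.533. It was larger in KO by 2.39 (SE 0.68) for Ccl5, by 1.87 (SE 0.59) for Icam1 and by 2.35 (SE 0.69) for C1ra, with limma adjusted p from 0.303 to 0.309. In all of these but Ccl2, Ccl7 and Csf1 both untreated KO arrays lay below both untreated WT arrays. All of these genes belong to a class read from the KO values, so a larger response in KO is favoured by the choice. By the same rule 4 genes were sustained and higher on the WT arrays, and 3 of them, Ccl2, Ccl7 and Ccl20, were sustained in KO too.

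Markers of other cell types were read as lists, since the labels name no cell type to check. The myeloid markers had a median of 0.27 over the treated KO arrays, with 3 of 15, among them Adgre1 and Ctss, past the line at 6 h. Their median level was -0.92 and -0.87 on the untreated KO arrays and -0.86, -0.63 and -0.78 at 1.5, 6 and 24 h. The sign of this median turned with equal spread, to -0.03, and after quantile normalization, to -0.08. Lymphocyte markers had a median of -0.08, yet Cd3e was sustained, Cd3g was past the line at 6 h alone and Zap70 was late. Smooth muscle markers had a median of -0.21 (0.14 with equal spread), with Myh11 and Lmod1 lower at 6 h alone. The fibroblast list had a median of -0.06, with Dcn in the late class, and endothelial markers one of -0.21, with Kdr late and Esam lower at 6 h alone. Their part in the results for chemokines was not tested. In bulk RNA fewer cells of a type and less RNA per cell cannot be told apart.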

How the data were processed

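The authors deposited 1 normalized log ratio per spot for each array, here named log2. Neither base, direction nor normalization is given in the sources used here. The values are read as log2 of Cy5 sample over Cy3 reference, which is an assumption. They run from -8.23 to 8.97, which does not fix the base. The direction was read from targets such as Ccl2 lying higher after treatment, so the direction reported for these targets is not independent of that reading. Another base would leave directions and tests as they are but change sizes and, with them, every class count and membership that uses a line of 1. Of 38784 spots 22204 had 1 gene symbol in the platform annotation (all gene IDs were found in RefSeq) and 16580 none or several, which were not used. The KO arrays held 36822 to 38530 values, and 9794 of 14365 genes had 1 probe. The number of arrays limits the precision.

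Arrays were centred on their median gene value. Tests used limma 3.58.1 in R 4.3.3 (lmFit, eBayes, two-sided, Benjamini-Hochberg adjustment over all genes) and were tried on simulated data. There the fits of 1 time made many false calls when variances were drawn from each gene's moderated estimate and fewer when drawn from the fitted prior, the form kept, so counts from these fits need caution. The fits of 1 time also missed all genes given a change of 2 log2 units. Their simulated variances came from a prior fitted with the treated times pooled, unlike the fits of 1 time themselves. Fits of 1 time have 1 residual degree of freedom, the treated-against-untreated fit 3 and the comparison with WT 6. Classes over time need a distance of 1 from both untreated arrays. The gene lists, classes and named genes were chosen with earlier results of these data known. Named genes are list members in a class, 9 fixed genes, up to 10 leading genes per class and those passing a test, and others are said to be chosen after their values were seen. Alternatives covered centring, scaling, spot position, probes, filters, variance prior, thresholds, baseline and each KO array left out. Sequences are from RefSeq. A pairing of arrays is not given by the labels, and a block of the letters a and b of the untreated arrays was tried as an alternative.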

Additional observations from a re-analysis of the deposited data

Results flagged for a closer look

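The response to TNF-alpha differed between the genotypes for 2 genes by the test of the difference itself. For Slc15a2 the KO response exceeded the WT response by 2.81 on the log2 scale and for Prh1 by 2.23 (limma over 14365 genes, adjusted p = 0.00759 and 0.0420). In both genes all 3 treated KO arrays lay above both untreated KO arrays, and all 3 treated WT arrays lay below both untreated WT arrays. Their probes stand 239 spots apart in the deposited order, where the running median of neighbouring spots was 0.66 and 0.53 higher on treated than on untreated KO arrays. The share of this local shift in the 2 results was not tested beyond its removal, after which neither gene passed. Prh1 was also above the threshold without centring, among genes with an SD above the median, with the replicate block and without any of the 3 treated KO arrays, including the 24 h array whose label is in doubt (adjusted p from 0.0521 to 0.168).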

How the results depend on the processing

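Of 96 genes the naming rule gave, 77 kept the sign of their treated-minus-untreated difference under all 10 alternatives run for them, and 19, among them Tnf, Sod2, Ccl4, Nos2 and Pcna, did not. Most of the 96 were named because they lie in a class, which favours a kept sign. Sustained genes cannot change sign when an array is left out. The share over all genes was not computed, so the count of 77 is no measure of robustness. Limits come from the arrays: each time has 1 array, the untreated pair differs widely, and counts past a line move with the baseline. Array-wide spread and spot position were varied, and their causes were not tested. Not run were classes and single-time tests without the array that defines them, and the KO-only probe set in the comparison with WT.

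The treated-against-untreated test called 1 gene, Ccl2, without centring, with the trend in spot order removed, with equal spread, after quantile normalization or with a robust prior. It called 4 at an adjusted p under 0.1, 138 among genes with an SD above the median, and 0 to 215 with an array left out (215 without KO 0 h a, 16 without b). Without the 24 h array it called 73 with the SD filter and 0 to 177 with an array left out (177 without KO 0 h a, 11 without b). The 1.5, 6 and 24 h tests called 3, 1 and 5 without centring, 8, 5 and 13 with equal spread and 19, 19 and 27 with the SD filter. With the baseline reduced to 1 array they called 950, 1886 and 2274 without KO 0 h a and 296, 305 and 724 without b, and there the spread came from the WT pair. The comparison with WT called 1 gene without centring or with each probe alone, 0 with the trend in spot order removed and 1 to 325 with an array left out (325 without KO 0 h a, 16 without b, 1 without 6 or 24 h). With the SD filter and without 1.5 h the count stayed at 2, but the second gene was Cd247 and not Prh1. With the letters as a replicate block it called 1, as Slc15a2 kept an adjusted p of 0.0264 and Prh1 had 0.127.

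Counts of classes are given as early higher, early lower, sustained higher, sustained lower, late higher, late lower, then higher and lower at both 1.5 and 6 h. They were 77, 96, 53, 5, 221, 203, 68 and 16. With a line of 0.5 they were 347, 472, 278, 99, 1112, 910, 366 and 149, and with one of 1.5 they were 29, 28, 15, 0, 75, 34, 17 and 2. A line from the untreated mean gave 170, 169, 208, 26, 492, 372, 255 and 46, and each probe alone 178, 289, 99, 10, 476, 398, 131 and 32. Without KO 0 h a they were 207, 221, 574, 95, 599, 578, 661 and 131, and without b 237, 249, 149, 63, 497, 380, 198 and 93. Equal spread moved early higher to 48, sustained to 17 and 1, and those at both times to 21 and 10. Quantile normalization moved sustained higher to 24, late to 142 and 327, and higher at both times to 31. The trend in spot order removed gave 12 sustained lower genes. Without 1.5, 6 or 24 h the sustained higher count was 116, 68 and 68 and the lower 26, 11 and 16.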

Other observations

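Receptor genes of smell and pheromone sensing, a group chosen after the data were seen, appear in several KO classes. Of 820 measured olfactory receptor genes, 5.71% of all genes, 7 were among the 77 early higher (9.09%), 9 among the 96 early lower (9.38%), 25 among the 221 late higher (11.3%) and 17 among the 203 late lower genes (8.37%). At 6 h alone the shares were 5 of 163 higher (3.07%) and 3 of 90 lower genes (3.33%). In WT the late higher class held 21 of 178 (11.8%) and the higher class at 6 h alone 12 of 79 (15.2%). Of the 120 vomeronasal receptor genes, 0.84% of all genes, 3 were early higher (3.90%), 5 early lower (5.21%), 5 late higher (2.26%) and 5 late lower (2.46%) in KO. At 6 h alone 0 were higher and 3 lower (3.33%). These shares are a description with no test.

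The untreated KO level stood below WT most often in the classes that were higher. Both untreated KO arrays lay below both untreated WT arrays in 46 of 77 early (59.7%) and 162 of 221 late higher genes (73.3%), against 28.8% of all genes. In the late lower class they lay above in 120 of 203 (59.1%), against 24.0% of all genes. The classes read the untreated KO values, so these shares are a description.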
